A study of Mus musculus with 45 samples.

Results

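Interleukin-1 and interleukin-18 are inflammatory cytokines made as precursors. The 7 genes followed here encode the ligands, 1 antagonist and the core of the machine that processes interleukin-1β and interleukin-18. These genes are Il1a, Il1b and Il18, the receptor antagonist Il1rn, the sensor Nlrp3, the adaptor Pycard and the protease Casp1. They were chosen by name, and each was read from the probe set with 1 gene symbol that had the highest mean over all 45 arrays. They are 7 of 19752 genes so measured, each had 1 such probe set, and 7 of 7 passed the intensity filter that left 11074 genes to test.

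The arrays measured RNA of muscle macrophages, sorted from male C57Bl6 mice at day 0 (uninjured) or at day 1, 4 or 7 after cardiotoxin, a snake venom toxin that kills muscle fibres. Foxp3.DTR+ mice carry a diphtheria toxin receptor driven by the Foxp3 gene, so that diphtheria toxin (DT) removes regulatory T cells. Foxp3.DTR− mice lack it, and in the sets titled with a DT time both genotypes carry that time in their titles. Regulatory T cells themselves were not measured, and the arrays cannot check the genotype. The titles give 18 groups, each split by surface MHC class II (MHCII). Day 7 with 8 h of DT (mice of 12 weeks) comprised, among MHCII+ arrays, 3 of DTR+ and 3 of DTR− mice, and among MHCII− arrays 3 of DTR+ and 4 of DTR− mice. Day 7 with 24 h of DT (8 weeks) comprised, among MHCII+ arrays, 2 of DTR+ and 4 of DTR− mice, and among MHCII− arrays 3 of each. A further day 7 set, whose titles give no DT time (10 weeks), held 2 DTR+ and 2 DTR− arrays, MHCII+ only. Day 1 with 24 h of DT (8 weeks) held 2 arrays of each genotype and subset, and day 4 (8 weeks) and day 0 (10 weeks) held 2 DTR− arrays per subset, with no DT time given. All gates were Ly6g−, CD11b+ and F4-80+; those of the 8 h set, day 1 and day 4 also excluded SiglecF+ cells, and those of day 1 and day 4 kept CD45+ DAPI− cells.

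As a background, IL-1α and IL-1β bind the same receptor and signal through MyD88 to NF-κB, whereas the product of Il1rn occupies that receptor without signalling. Transcription of Il1b and Nlrp3 is induced by a first, priming signal. A second signal makes NLRP3 assemble with the adaptor ASC, the product of Pycard, and caspase-1, which cleaves the precursors of IL-1β and IL-18. In injured muscle, early infiltrating macrophages are known for inflammatory cytokines and later ones for repair. RNA levels do not show cleavage or release.

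Macrophage genes were high in both subsets: Adgre1, which encodes F4/80, had log2 levels between 12.40 and 13.24 in MHCII+ arrays and between 12.56 and 13.13 in MHCII− arrays. One entry of the labels reads MHCII− for nearly all samples against the titles, but the class II gene H2-Ab1 ranged between 13.67 and 14.01 over 24 MHCII+ arrays and between 7.81 and 12.45 over 21 MHCII− arrays, so the titles were followed. Arrays of a group correlated at 0.976 to 0.998. The labels do not say that samples are separate animals, so p-values measure only the spread between these samples. Precision is limited by how many arrays a group has. In sorted cells measured in bulk, fewer cells of a type and less RNA per cell cannot be told apart. Levels are log2 intensities, and a change is a log2 difference ± SE from a limma fit of all 45 arrays; it passed when its adjusted p (Benjamini-Hochberg over the 11074 genes) was under 0.05.

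The promoters of Il1a, Il1b and Nlrp3 are shown because these are the 3 genes that rose together in DTR+ MHCII+ macrophages of the 8 h set, described next. Each is the 250 bases before the transcription start listed by RefSeq (GRCm38.p6), read along the gene's own strand; of the starts listed for Nlrp3 the one farthest upstream was taken. Il1a lies at chr2:129309973-129310222 (minus strand), Il1b at chr2:129371140-129371389 (minus strand) and Nlrp3 at chr11:59541319-59541568 (plus strand). Capitals mark matches, on either strand, to 7 searched motifs: NF-kB, AP-1 TGANTCA, C/EBP TTNNGNAA, the TATA box TATAAA, the cAMP response element TGACGTCA and its core TGACG, and the interferon response element.
Il1a promoter: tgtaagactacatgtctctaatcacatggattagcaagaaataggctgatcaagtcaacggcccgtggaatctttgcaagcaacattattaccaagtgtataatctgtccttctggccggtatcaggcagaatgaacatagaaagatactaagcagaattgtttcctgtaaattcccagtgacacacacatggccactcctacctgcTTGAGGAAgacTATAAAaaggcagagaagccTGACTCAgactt
Il1b promoter: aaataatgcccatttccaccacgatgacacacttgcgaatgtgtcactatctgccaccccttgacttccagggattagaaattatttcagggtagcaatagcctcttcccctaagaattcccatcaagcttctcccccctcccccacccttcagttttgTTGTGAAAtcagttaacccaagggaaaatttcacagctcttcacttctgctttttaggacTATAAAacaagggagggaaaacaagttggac
Nlrp3 promoter: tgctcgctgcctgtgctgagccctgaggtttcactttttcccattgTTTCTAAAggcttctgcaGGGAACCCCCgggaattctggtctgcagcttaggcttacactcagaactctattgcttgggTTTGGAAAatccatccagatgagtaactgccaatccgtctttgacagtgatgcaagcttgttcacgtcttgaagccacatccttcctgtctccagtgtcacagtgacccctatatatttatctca

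The Il1a window held an AP-1 match 12 bases and a TATA match 32 bases before the start, with a C/EBP match at 43. The Il1b window held a TATA match at 31 and a C/EBP match at 91 bases before the start. Nlrp3 held C/EBP matches at 204 and 125 and an NF-kB match at 186 that reads on both strands. None of these matches overlapped another motif. Among 32851 windows of the same length, 12.4% held the TATA letters, 6.75% those of AP-1, 36.8% those of C/EBP and 45.8% those of NF-kB, so the letters of the last pair are common. The cAMP letters (1.55% of windows, 17.8% for the core) and the interferon letters (2.98%) had no match in these 3 windows.

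The question of the DTR+ against DTR− comparisons was what loss of regulatory T cells does to macrophages of regenerating muscle. In the 8 h set, MHCII+ macrophages of DTR+ mice had higher levels of both IL-1 ligands and of the sensor: Il1a was 3.95-fold, Nlrp3 2.03-fold and Il1b 1.59-fold that of DTR− mice. These 3 of 7 members rose and 0 fell, where 0.488% of all tested genes passed in either direction (0.388% higher). The median over the 7 was 0.67, against −0.04 over all tested genes. Casp1, Pycard and Il18 did not pass.

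Il1a, whose product also acts as an alarm signal of damaged cells, had log2 levels of 11.21, 11.12 and 10.99 in DTR+ MHCII+ arrays, against 8.95, 9.33 and 9.10 in DTR− MHCII+ arrays. The 3 DTR+ arrays all lay above the 3 DTR− arrays, by more than the spread within either group. The difference was 1.98 ± 0.26 (limma, adjusted p = 8.4e-05; 95% interval 1.46 to 2.505), which ranked 1 of the 11074 tested genes by size in this comparison. Leaving out any of the 6 arrays gave 1.89 to 2.08, and Il1a passed each time.

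Nlrp3 lay at 10.49, 10.76 and 10.56 in DTR+ arrays, against 9.27, 9.65 and 9.83 in DTR− arrays. The groups did not overlap, and the DTR− arrays were the more scattered. The log2 difference was 1.02 ± 0.23 (limma, adjusted p = 0.031). It no longer passed without DTR+ array 1 or 4 (adjusted p = 0.097 and 0.087) or without DTR− array 1 or 2 (0.28 and 0.12).

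Il1b, the ligand that needs caspase-1 for its release, lay at 13.12, 13.09 and 13.12 in DTR+ arrays, against 12.27, 12.45 and 12.60 in DTR− arrays. The DTR+ arrays sat within a narrow band above all DTR− arrays. Its log2 difference was 0.67 ± 0.155 (limma, adjusted p = 0.038). It passed without DTR+ array 3 but not without DTR+ array 1 or 4 (adjusted p = 0.15 and 0.099) or DTR− array 1, 2 or 3 (0.29, 0.17 and 0.052). Nor did Il1b pass with no filter on dim genes (adjusted p = 0.055), with array quality weights (0.12), or with the compared arrays only (0.12), where Nlrp3 did not pass either (0.13). With the replicate number as a block, neither passed (adjusted p = 0.19 for Il1b and 0.14 for Nlrp3).

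The antagonist Il1rn lay at 12.56, 12.19 and 12.46 in DTR+ arrays, against 11.59, 11.46 and 12.15 in DTR− arrays. The groups did not overlap, but DTR− array 3 lay just below the lowest DTR+ array, and the difference of 0.67 ± 0.26 did not pass (limma, adjusted p = 0.18). In all, 4 members had groups that did not overlap, each higher in DTR+, as did 12.2% of all tested genes. For the downstream members the groups overlapped: Casp1 differed by −0.25 ± 0.205 (95% interval −0.66 to 0.17), Pycard by 0.16 ± 0.14 (−0.12 to 0.44) and Il18 by 0.12 ± 0.15 (−0.19 to 0.43).

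Markers of other cells were read beside these values. The summed level of 7 T cell genes (log2 of the summed intensities) was 12.56 in DTR+ array 1 and 11.12 to 11.14 in the other DTR+ arrays, against 11.01 to 11.18 in DTR− arrays; without DTR+ array 1 the Il1a difference was 1.93. Summed neutrophil genes lay at 11.31 to 11.40 in DTR+ and 11.30 to 11.39 in DTR− arrays, and summed monocyte genes at 12.17 to 12.30 and 12.09 to 12.35. The sum of 6 dendritic cell genes was 12.26 to 12.32 in DTR+ and 11.60 to 12.21 in DTR− arrays. The sum of 6 macrophage genes was 14.82 to 15.21 in DTR+ and 15.26 to 15.34 in DTR− arrays, and that of 4 MHC class II genes 15.55 to 15.76 and 15.81 to 15.84. These last 3 sums did not overlap between genotypes, no gene of any marker list passed, and their part in the result was not tested.

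**Figure D1:**
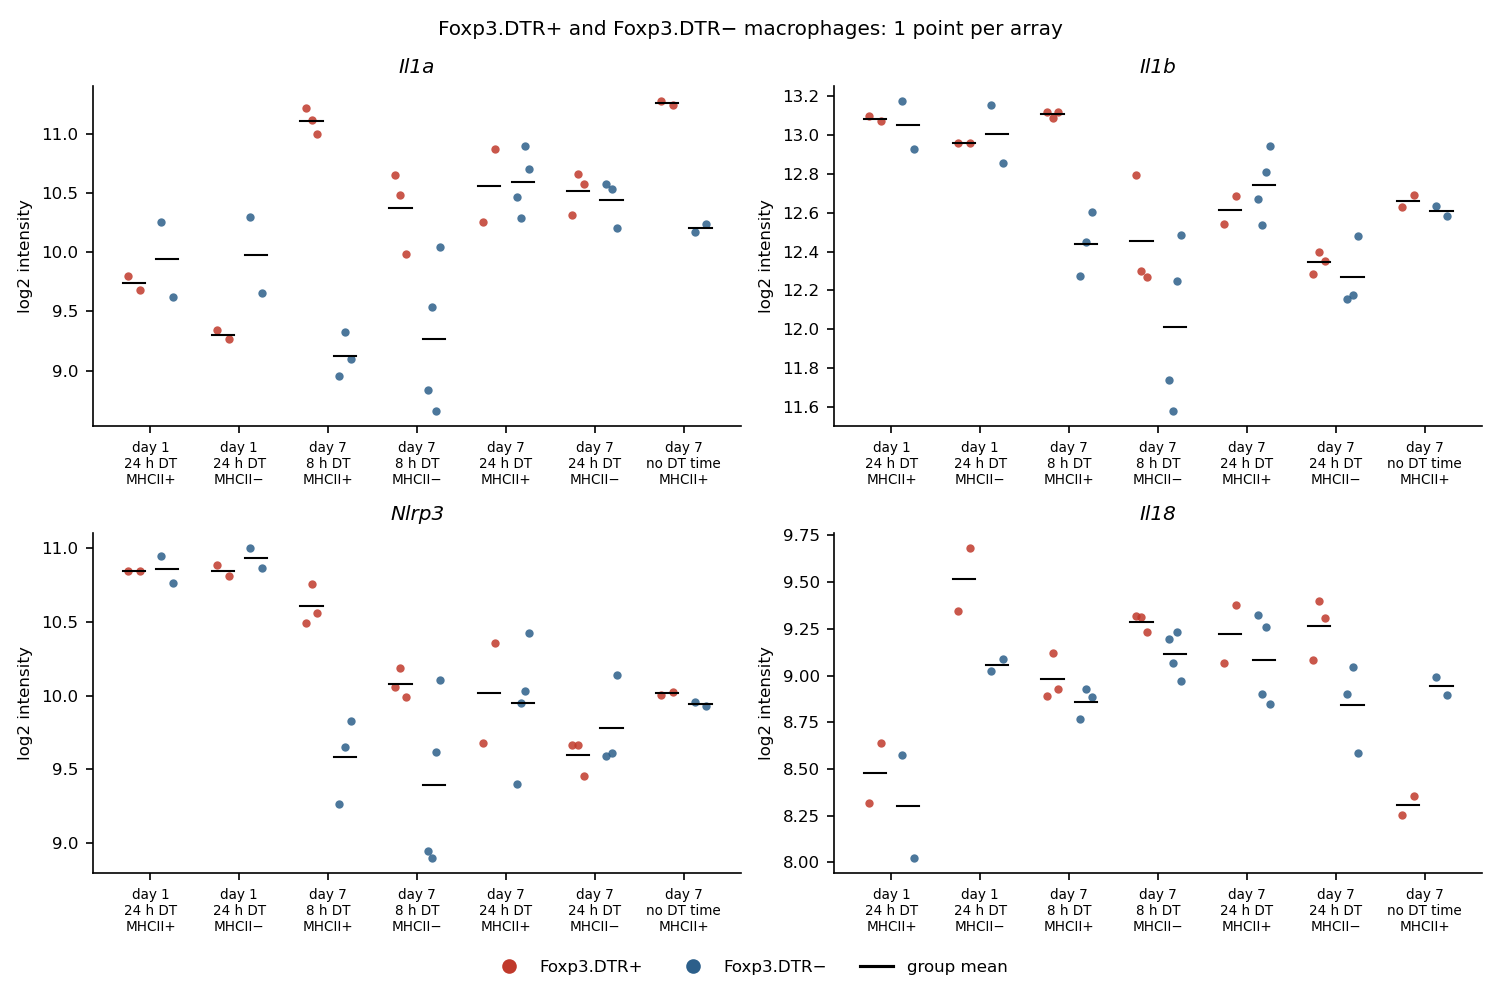
Log2 intensity of Il1a, Il1b, Nlrp3 and Il18 in each array (points) with group means (black lines), DTR+ left of DTR−, for the 7 pairs of groups that differ by genotype. In the 8 h MHCII+ pair the 3 DTR+ arrays lie above the 3 DTR− arrays for Il1a, Il1b and Nlrp3, while the pairs of the 24 h set overlap for these 3 genes.

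In MHCII− macrophages of the same 8 h set no member passed in limma, where 0.0181% of tested genes did; 3 of 7 had an unadjusted p under 0.05, as 4.39% of genes had. Il1a lay at 10.65, 10.48 and 9.99 in DTR+ arrays, against 8.83, 9.54, 8.66 and 10.04 in DTR− arrays (limma, 1.10 ± 0.24, adjusted p = 0.093). DTR− array 5 was the highest of its group and overlapped the DTR+ arrays; the other DTR− arrays lay below all of them. Nlrp3 and Il1b followed the same arrangement, with DTR− array 5 at 10.11 and 12.49, the top of its group for both. Their differences were 0.69 ± 0.215 (adjusted p = 0.46) and 0.44 ± 0.145 (adjusted p = 0.57). Without DTR− array 5, 3 members passed, where 0.876% of genes did: Il1a by 1.36 (adjusted p = 0.00075), Nlrp3 by 0.93 (0.013) and Il1b by 0.60 (0.02). In the other 6 of the 7 fits that left out 1 array, 0 members passed. The search for outlying arrays given at the end did not mark array 5.

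The genotype difference of Il1a was larger in MHCII+ than in MHCII− macrophages at 8 h by 0.88 ± 0.35, which did not pass (limma, adjusted p = 0.6). In this test of the difference 0 of 7 members passed, as did 0% of genes, and 1 had an unadjusted p under 0.05 (7.73% of genes).

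In the 24 h set, 0 of 7 members passed in MHCII+ macrophages (0.0542% of genes did) and 0 of 7 in MHCII− macrophages (0.00903%). In limma 0 and 2 members had an unadjusted p under 0.05, as had 6.47% and 6.47% of genes. Il1a lay at 10.25 and 10.87 in DTR+ MHCII+ arrays, against 10.47, 10.29, 10.90 and 10.70 in DTR− MHCII+ arrays, and the difference was −0.03 ± 0.27 (95% interval −0.58 to 0.53). The groups overlapped, and that interval lies below the 8 h estimate. Nlrp3 differed by 0.07 ± 0.24 (−0.43 to 0.56) and Il1b by −0.13 ± 0.17 (−0.46 to 0.21). In MHCII− macrophages Il18 (0.42 ± 0.15) and Pycard (0.37 ± 0.14) had groups that did not overlap, both higher in DTR+ (limma, adjusted p = 0.72 for each), as 2.85% of genes did. The 24 h minus 8 h difference of the Il1a genotype effect in MHCII+ cells was −2.01 ± 0.375 and missed the threshold (limma, adjusted p = 0.065); those of Nlrp3 and Il1b were −0.96 ± 0.335 (0.35) and −0.79 ± 0.23 (0.28). The 95% interval for Il1a was −2.77 to −1.25, and 0% of all genes passed this test; 3 members, and 11.9% of genes, had an unadjusted p under 0.05. It passed without 24 h DTR+ array 5 (−2.32, adjusted p = 0.036), 8 h DTR+ array 3 (−2.00, 0.027) or 8 h DTR− array 2 (−2.11, 0.049).

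**Figure D2:**
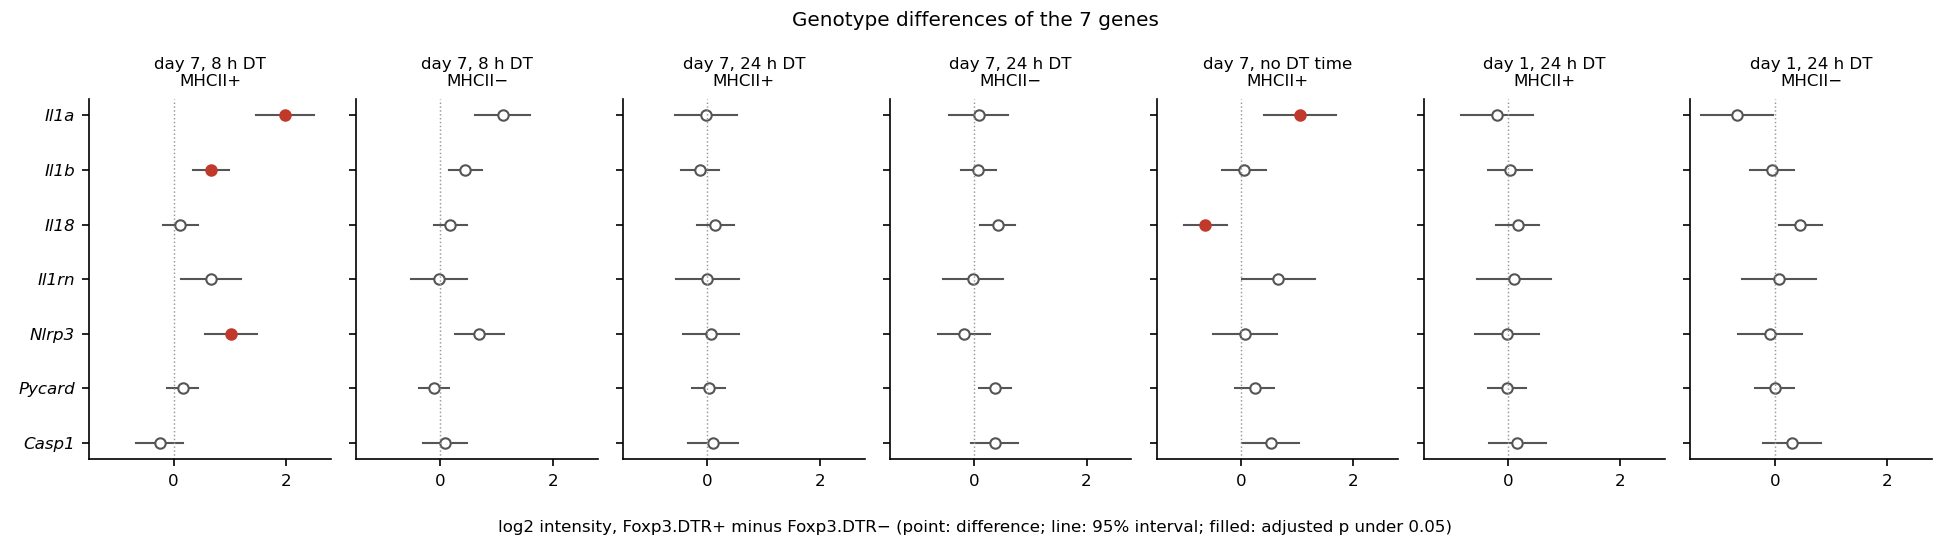
Log2 difference, DTR+ minus DTR−, of the 7 genes (rows) in the 7 genotype comparisons (panels), with 95% intervals; filled points passed. The 5 filled points are Il1a, Il1b and Nlrp3 in 8 h MHCII+ macrophages, and Il1a and Il18 in the set with no DT time.

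The 2 day 7 sets also differed in their DTR− arrays, which was seen in the values before it was tested. Il1a in DTR− MHCII+ macrophages averaged 9.13 ± 0.19 in the 8 h set (SD, n = 3) and 10.59 ± 0.265 in the 24 h set (SD, n = 4), a difference of −1.46 ± 0.24 (limma, adjusted p = 2.4e-04). In DTR− MHCII− macrophages the averages were 9.27 ± 0.64 (n = 4) in the 8 h set and 10.44 ± 0.20 (n = 3) in the 24 h set, a difference of −1.17 ± 0.24 (limma, adjusted p = 0.0054). Il1a was the 1 member of 7 that passed in each case, where 16.6% and 8.04% of genes did. Same-numbered MHCII− arrays of the sets deviated together weakly (correlations 0.193, 0.297 and 0.228). The labels do not say what the numbers stand for, and the mice differ in age, so a number shared by the sets need not mark a pair. In an alternative fit the number was a block, which leaves the unpaired array 5 without weight. There 4 members and 13.3% of genes passed. The members were Il1a by −1.43 (limma, adjusted p = 1.6e-04), Il1b by −0.41 (0.018), Nlrp3 by −0.63 (0.019) and Pycard by 0.38 (0.048). With the compared arrays only, Il1a did not pass in MHCII− cells (adjusted p = 0.061). In DTR+ macrophages 0 of 7 members passed in MHCII+ (3.12% of genes did) and 0 of 7 in MHCII− cells (4.14%), with 3 and 1 at an unadjusted p under 0.05 in limma (19.2% and 20.4% of genes); Il1a differed by 0.55 ± 0.29 (adjusted p = 0.3) and −0.15 ± 0.26 (0.81). The low 8 h DTR− level thus enters the 8 h genotype difference. In DTR− MHCII+ cells 3 of 6 macrophage genes were higher and 2 of 5 tested dendritic cell and 1 of 2 tested eosinophil genes lower in the 8 h set (eosinophil sums 8.92 to 8.96 in the 8 h set, 8.86 to 9.58 in the 24 h set). DT time, age and the SiglecF gate differ between the sets and cannot be told apart.

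In the day 7 set with no DT time, MHCII+ macrophages of DTR+ mice had more Il1a and less Il18. Of the 7 members 1 rose and 1 fell, where 11.5% of tested genes passed (5.32% higher, 6.2% lower); 4 members and 22.2% of genes had an unadjusted p under 0.05. Il1a lay at 11.27 and 11.24 in DTR+ arrays, against 10.17 and 10.24 in DTR− arrays, a 2.07-fold difference (limma, 1.05 ± 0.315, adjusted p = 0.023). Il18, a ligand that promotes interferon-γ production by lymphocytes, lay at 8.26 and 8.36 in DTR+ arrays, against 8.99 and 8.90 in DTR− arrays (limma, −0.64 ± 0.19, adjusted p = 0.021). For both genes the pairs were tight and far apart. Neither passed when any 1 of the 4 arrays was left out (adjusted p from 0.097 to 0.15 for Il1a and from 0.067 to 0.18 for Il18), nor did Il1a with quantile normalization (0.051).

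Il1b and Nlrp3 did not pass here: Il1b averaged 12.66 ± 0.04 in DTR+ and 12.61 ± 0.04 in DTR− arrays (SD, n = 2 each), with an interval of −0.33 to 0.44 for the difference, and Nlrp3 averaged 10.02 ± 0.02 in DTR+ and 9.94 ± 0.02 in DTR− arrays. Il1rn (0.67 ± 0.32) and Casp1 (0.52 ± 0.25) were higher without overlap but did not pass (limma, adjusted p = 0.21 each). In all, 5 members were higher and 1 lower without overlap, as were 33.3% and 36.4% of all tested genes. Other cell types' genes moved in this comparison: 5 of 5 tested skeletal muscle genes fell, with sums of 11.39 to 11.66 in DTR+ and 12.22 to 12.46 in DTR− arrays. Of 6 macrophage genes 2 fell (sums 15.09 to 15.15 in DTR+, 15.32 to 15.33 in DTR−). Of 4 monocyte genes 2 rose (sums 13.24 to 13.82 in DTR+, 12.44 to 12.52 in DTR−), and of 4 tested T cell genes 2 fell (sums 10.09 to 10.12 in DTR+, 11.13 to 11.18 in DTR−). Of 2 tested eosinophil genes 1 rose (sums 9.496 to 9.577 in DTR+, 9.038 to 9.06 in DTR−), and of 5 tested dendritic cell genes 1 rose and 1 fell (sums 11.18 to 11.41 in DTR+, 11.38 to 11.39 in DTR−). Their part in the Il1a and Il18 differences was not tested.

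At day 1 no member passed in MHCII+ or MHCII− macrophages, and 0% of genes did in each. In limma 0 and 2 members had an unadjusted p under 0.05 (0.226% and 1.39% of genes). Il1a lay at 9.35 and 9.27 in DTR+ MHCII− arrays, against 10.30 and 9.66 in DTR− MHCII− arrays, a difference of −0.67 ± 0.315 (limma, adjusted p = 1.0) whose sign was opposite to that at 8 h. Il18 lay at 9.35 and 9.68 in DTR+ MHCII− arrays, against 9.03 and 9.09 in DTR− MHCII− arrays (0.46 ± 0.19, adjusted p = 1.0). In these MHCII− cells 2 members were higher and 1 lower without overlap, as were 31.5% and 13.8% of genes. Nlrp3 and Il1b differed by −0.09 to 0.04 in the 2 subsets at this time. Over the 7 genotype comparisons, Il1a had differences from −0.67 to 1.98 and passed in 2, whereas Casp1 (−0.25 to 0.52), Pycard (−0.11 to 0.37) and Il1rn (−0.03 to 0.67) passed in 0.

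The next comparisons asked how MHCII+ and MHCII− macrophages of DTR− mice differ. Il1b was the member with a difference of 1 sign in all 5 comparisons, higher in MHCII+ macrophages by 0.04 to 0.74. At day 0 it lay at 12.80 and 12.93 in MHCII+ arrays, against 12.25 and 12.01 in MHCII− arrays, a 1.67-fold difference (limma, 0.74 ± 0.19, adjusted p = 0.0053). It was the 1 member of 7 that passed at day 0, where 19% of tested genes did, and 8.44% were higher. It no longer passed without MHCII+ array 2 (0.67, adjusted p = 0.076) or MHCII− array 2 (0.615, 0.091). Il1a was higher by 0.85 ± 0.315 without overlap, as 30.3% of all tested genes were, and did not pass (limma, adjusted p = 0.056). Its difference was 1.17 without MHCII+ array 1 and 1.26 without MHCII− array 2.

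Other cells' genes differed between the day 0 subsets. Of 9 tested neutrophil genes 8 were lower in MHCII+ arrays, with sums of 11.96 to 11.99 in MHCII+, against 14.27 and 12.26 in MHCII− arrays 1 and 2; without MHCII− array 1 the Il1b difference was 0.86 (adjusted p = 0.012). Of 5 tested dendritic cell genes 4 were higher in MHCII+ (sums 13.65 to 13.87, against 11.95 to 12.23 in MHCII−). Of 6 macrophage genes 4 were lower (sums 14.8 to 14.87, against 15.28 to 15.35 in MHCII−). Of 4 tested T cell genes 1 was higher (sums 11.83 to 11.97, against 10.11 to 10.13 in MHCII−). Of 4 monocyte genes 1 was higher and 1 lower, and of 2 tested eosinophil genes 1 was lower. The part of these markers in the Il1b difference was not tested.

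At later times the Il1b difference was 0.04 ± 0.19 at day 1 and 0.53 ± 0.19 at day 4 (limma, adjusted p = 0.2), and in the day 7 sets 0.43 ± 0.145 at 8 h (adjusted p = 0.15) and 0.47 ± 0.145 at 24 h (adjusted p = 0.051). At day 4 Il1b lay at 13.11 and 13.21 in MHCII+ arrays, against 12.77 and 12.50 in MHCII− arrays, and Nlrp3 at 10.58 and 10.90 in MHCII+ arrays, against 10.15 and 10.12 in MHCII− arrays. Both genes were higher in MHCII+ arrays without overlap, and so were Il1a and Il1rn: 4 members in all, where 15.8% of genes were. Il18 and Pycard, 2 members, were lower without overlap, as 27.4% of genes were. In this comparison 0 of 7 members passed, where 2.12% of genes did (1.12% higher), and 2 had an unadjusted p under 0.05 in limma (9.35% of genes). In the 24 h set 0 of 7 passed (5.23% of genes did, 2.04% higher and 3.19% lower), 1 had an unadjusted p under 0.05 in limma (20.5% of genes), and Il1b did not overlap: 12.67, 12.54, 12.81 and 12.95 in MHCII+, against 12.15, 12.17 and 12.48 in MHCII− arrays. There 4.12% of all tested genes were higher without overlap. Without MHCII+ array 2 or MHCII− array 3 Il1b passed (0.54 and 0.58, limma, adjusted p = 0.027 and 0.04). In the 8 h set 0 of 7 passed without a block (2.21% of genes did, 1.35% higher), and 1 had an unadjusted p under 0.05 in limma (9.46% of genes). There the same-numbered arrays of the subsets deviated together, and with the number as a block Il1b passed at 0.585 (adjusted p = 0.005), as it did without the unpaired MHCII− array 5 (0.585, 0.014).

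Il18 went the other way at day 1. It lay at 8.58 and 8.03 in MHCII+ arrays, against 9.03 and 9.09 in MHCII− arrays. Both MHCII+ arrays were lower, array 2 most, and 17.4% of all tested genes were lower without overlap. Il18 differed by −0.76 ± 0.19 (limma, adjusted p = 0.017). It was the 1 member of 7 that passed at day 1, where 2.45% of genes did, and the 1 with an unadjusted p under 0.05 (7.96% of genes). Without MHCII+ array 2 the difference was −0.48 (adjusted p = 0.77), and without MHCII− array 1 or 2 it was −0.79 (0.11) and −0.725 (0.18). Of 5 tested dendritic cell genes 3 were higher in MHCII+ arrays at day 1 (sums 12.67 to 12.79, against 9.444 to 9.461 in MHCII−). Of 4 monocyte genes 1 was lower (sums 13.71 to 13.95, against 14.36 to 14.47 in MHCII−). Of 4 tested T cell genes 1 was higher (sums 10.31 to 10.36, against 9.866 to 9.868 in MHCII−). The part of these markers in the Il18 difference was not tested. At day 0 Il18 differed by 0.23 ± 0.19 with overlap. The change of the subset difference between day 1 and day 0 was −0.99 ± 0.27 (limma, adjusted p = 0.024), the 1 of 7 that passed, where 4.66% of genes did. It did not pass without day 1 MHCII+ array 2 (−0.71, 0.2), day 1 MHCII− array 1 (−1.02, 0.065) or 2 (−0.955, 0.087), day 0 MHCII+ array 1 (−0.76, 0.12) or day 0 MHCII− array 2 (−0.71, 0.21). With the compared arrays only, Il18 did not pass (adjusted p = 0.096) and Il1b did (−0.69, 0.047). From day 1 to day 4 0 of 7 such changes passed (1.23% of genes did), and 1 had an unadjusted p under 0.05 in limma (8.32% of genes).

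The injury course was read in DTR− macrophages. Nlrp3 rose at day 1 in both subsets and Il1b in MHCII− macrophages, while Il18 fell at day 1 in MHCII+ macrophages and was back up at day 4. In MHCII− macrophages Nlrp3 lay at 11.002 and 10.868 at day 1, against 9.56 and 9.68 at day 0, a 2.49-fold rise (limma, 1.32 ± 0.28, adjusted p = 5.9e-04). Il1b lay at 13.16 and 12.86 at day 1, against 12.25 and 12.01 at day 0, a 1.84-fold rise (limma, 0.88 ± 0.19, adjusted p = 6.9e-04). All day 1 arrays lay above all day 0 arrays for both, as they did for 5 of 7 members and 32.1% of all tested genes. These 2 of 7 members rose and 0 fell, where 25.6% of genes passed, and both passed with any 1 of the 4 arrays left out (1.25 to 1.39 for Nlrp3, 0.73 to 1.03 for Il1b). Without day 0 array 1 Il18 also passed (0.68, adjusted p = 0.03), and without day 0 array 2 Il1rn did (1.21, 0.019).

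In MHCII+ macrophages 1 member rose and 1 fell at day 1, where 35.6% of genes passed. Nlrp3 lay at 10.95 and 10.77 at day 1, against 9.68 and 10.17 at day 0 (limma, 0.93 ± 0.28, adjusted p = 0.01), and did not pass without day 0 array 1 (0.68, 0.13) or day 1 array 1 (0.84, 0.085). Il18 lay at 8.58 and 8.03 at day 1, against 9.11 and 8.66 at day 0, close but without overlap. Such a lower level without overlap was seen in 37.6% of all tested genes. Il18 differed by −0.59 ± 0.19 (limma, adjusted p = 0.015). It did not pass without day 0 array 1 (−0.36, 0.23) or day 1 array 2 (−0.31, 0.31), nor with the compared arrays only (adjusted p = 0.083). Il1b, already at 12.80 and 12.93 at day 0, was at 13.17 and 12.93 at day 1 (0.18 ± 0.19, adjusted p = 0.47).

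Monocyte genes moved the same way at day 1: 4 of 4 rose in MHCII− cells (sums 14.36 to 14.47 at day 1, 11.83 to 12.26 at day 0) and 3 of 4 in MHCII+ cells (13.71 to 13.95 at day 1, 12.55 to 13.01 at day 0). In MHCII− cells 9 of 9 tested neutrophil genes fell (sums 11.07 to 11.10 at day 1, 14.27 and 12.26 in day 0 arrays 1 and 2). There 4 of 4 class II genes also fell (sums 11.11 to 11.19 at day 1, 13.19 to 13.79 at day 0), and of 6 macrophage genes 2 rose and 4 fell. Tested genes that fell there were also 3 of 5 for muscle, 2 of 5 for dendritic cells, 1 of 4 for fibroblasts, 1 of 4 for T cells and 1 of 2 for eosinophils. In MHCII+ cells 5 of 5 tested dendritic cell genes fell (sums 12.67 to 12.79 at day 1, 13.65 to 13.87 at day 0). Also lower there were 2 of 4 tested T cell, 2 of 5 tested muscle, 1 of 9 tested neutrophil and 1 of 4 tested fibroblast genes. Higher were 2 of 6 macrophage and 1 of 2 tested eosinophil genes. The part of these marker changes in the Nlrp3 and Il1b rises and the Il18 fall was not tested. The day 1 titles give 24 h of DT, while those of day 0 and day 4 give none, so day and DT, and between day 1 and day 0 also age and gate, cannot be told apart.

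From day 1 to day 4 Il18 rose in MHCII+ macrophages, to 9.19 and 9.05 at day 4, against 8.58 and 8.03 at day 1 (limma, 0.82 ± 0.19, adjusted p = 0.0024). It was the 1 member of 7 that passed there, where 15.4% of genes did. Without day 1 array 2 the difference was 0.545 (adjusted p = 0.13), and without day 4 array 2 it was 0.75 (0.05); neither passed. In MHCII− macrophages Nlrp3 fell to 10.15 and 10.12 at day 4, against 11.002 and 10.868 at day 1 (limma, −0.80 ± 0.28, adjusted p = 0.035), the 1 member of 7 that passed where 24.2% of genes did. It did not pass with any 1 of these 4 arrays left out (adjusted p from 0.098 to 0.17). Of 4 monocyte genes 2 fell in MHCII− cells (sums 12.67 to 13.27 at day 4, 14.36 to 14.47 at day 1), while 3 of 4 tested fibroblast, 2 of 5 tested muscle and 4 of 4 class II genes rose. There 1 of 5 tested dendritic cell and 1 of 4 tested T cell genes also rose, and of 6 macrophage genes 3 rose and 1 fell. In MHCII+ cells 2 of 4 monocyte genes fell (sums 13.11 to 13.30 at day 4, 13.71 to 13.95 at day 1). Of 5 tested dendritic cell genes 2 rose (sums 12.68 to 12.96 at day 4, 12.67 to 12.79 at day 1). Also higher were 2 of 4 tested fibroblast, 2 of 5 tested muscle and 1 of 4 tested T cell genes. Of 6 macrophage genes 1 rose and 1 fell, as did 1 and 1 of 9 tested neutrophil genes. The part of these marker changes in the Nlrp3 and Il18 changes was not tested. In MHCII+ macrophages Nlrp3 stayed at 10.58 and 10.90 on day 4 (−0.12 ± 0.28 against day 1), but the day 4 minus day 1 change of its subset difference, 0.69 ± 0.40, did not pass (adjusted p = 0.74).

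From day 4 to day 7, with the 24 h set as day 7, 0 of 7 members passed in MHCII+ (2.46% of genes did) and 0 of 7 in MHCII− macrophages (1.17%), with 2 and 2 at an unadjusted p under 0.05 in limma (15.4% and 12.3% of genes). Nlrp3 was lower by 0.79 ± 0.24 in MHCII+ cells, with day 7 levels of 9.40, 9.95, 10.04 and 10.43 all below the day 4 levels of 10.58 and 10.90 (limma, adjusted p = 0.08; 0.019 without day 7 array 4). Il1b was lower by 0.42 ± 0.165 without overlap (limma, adjusted p = 0.18), and 6.2% of all tested genes were lower without overlap. With the 8 h set as day 7, an alternative chosen after seeing the data, 3 members fell in MHCII+ cells, where 16.2% of genes passed. Il1a fell by 1.25 (limma, adjusted p = 0.0038), against a rise of 0.22 with the 24 h set that did not pass. Il1b fell by 0.72 (0.0051) and Nlrp3 by 1.16 (0.0028). In MHCII− cells, where 4.24% of genes then passed, Il1b fell by 0.62 (0.027). The titles of both sets give a DT time and those of day 4 none. The gates of both sets also differ from those of day 4, and the 8 h mice were 12 weeks old, against 8 weeks at day 4. Day, DT, gate and, for the 8 h set, age cannot be told apart here either. In the set with no DT time, 0 of 7 members passed at day 7 against day 0 in MHCII+ macrophages (19.2% of genes did) and 1 had an unadjusted p under 0.05 in limma (31.7% of genes); Nlrp3 lay at 9.96 and 9.93 at day 7, against 9.68 and 10.17 at day 0.

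**Figure D3:**
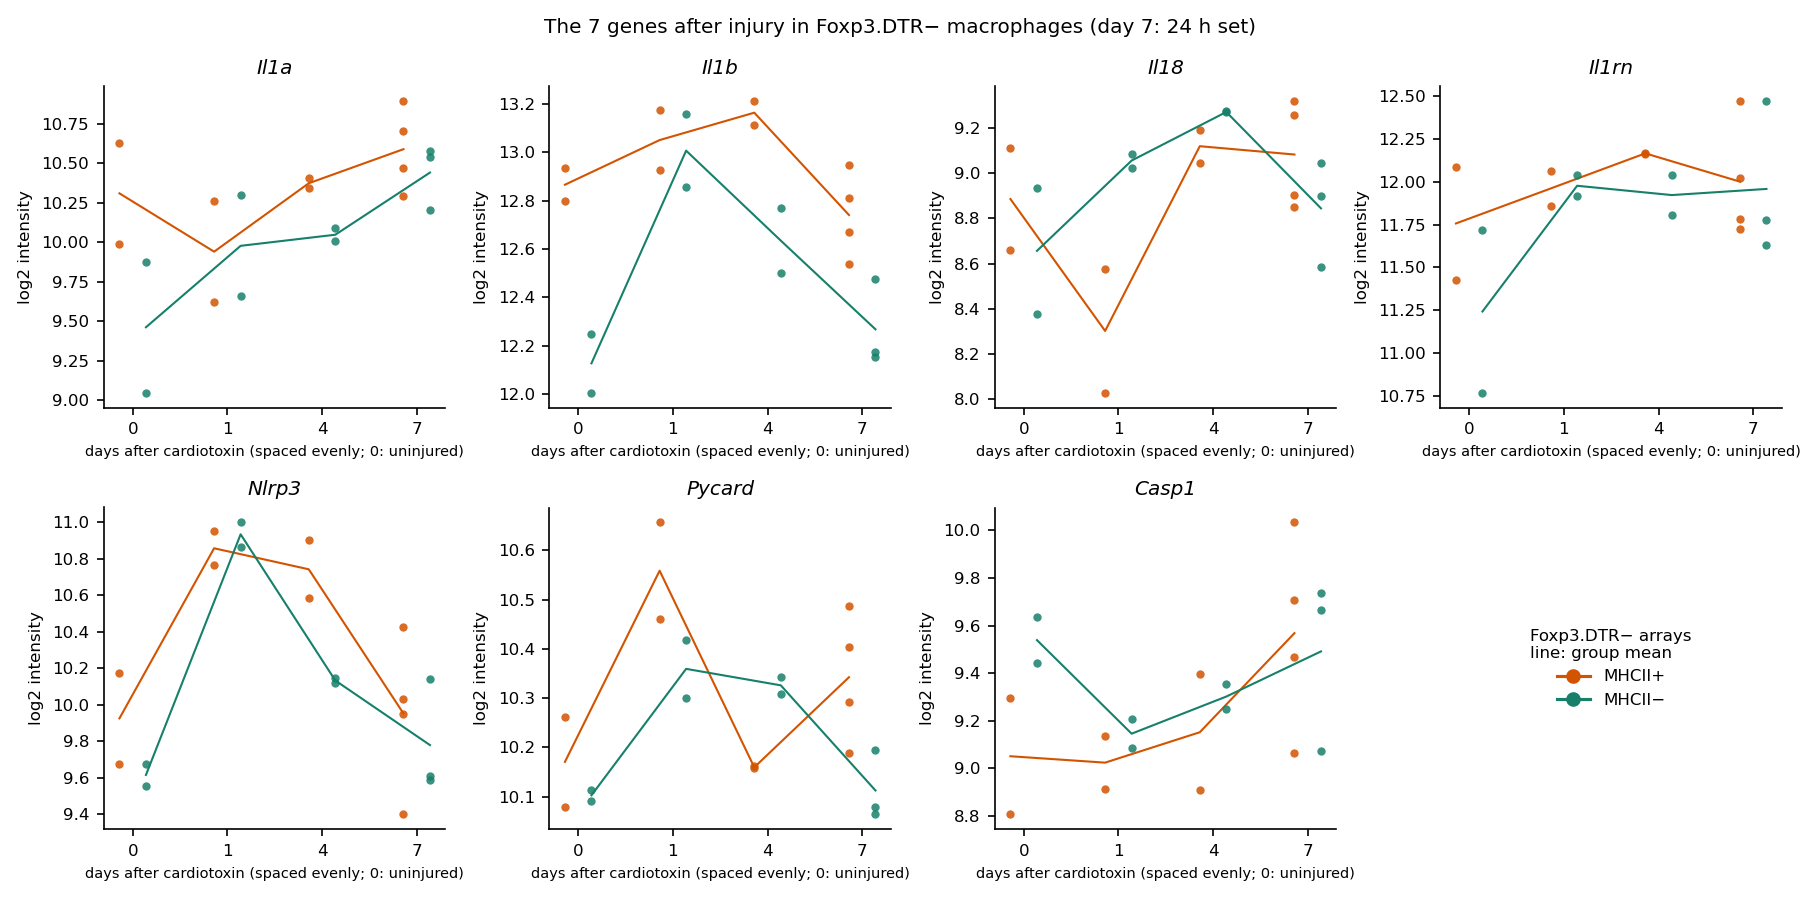
Log2 intensity of the 7 genes in DTR− macrophages at day 0, 1, 4 and 7 (24 h set), 1 point per array, with lines through the group means of MHCII+ and MHCII− cells. Nlrp3 is highest at day 1 in both subsets, Il1b moves most in MHCII− cells, and Il18 of MHCII+ cells is lowest at day 1; days are spaced evenly, not to scale.

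Across all 18 groups Il1a spanned the widest range of group means of the 7, from log2 9.13 (8 h DTR− MHCII+) to 11.26 (no DT time, DTR+ MHCII+). Il1b spanned 12.01 (8 h DTR− MHCII−) to 13.16 (day 4 MHCII+), Nlrp3 9.39 (8 h DTR− MHCII−) to 10.94 (day 1 DTR− MHCII−), and Il18 8.30 (day 1 DTR− MHCII+) to 9.51 (day 1 DTR+ MHCII−). Il1rn ran from 11.24 (day 0 MHCII−) to 12.41 (8 h DTR+ MHCII+), Casp1 from 9.02 (day 1 DTR− MHCII+) to 10.10 (no DT time, DTR+ MHCII+), and Pycard from 10.10 (day 0 MHCII−) to 10.61 (8 h DTR+ MHCII+). Pycard was the steadiest.

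Most neighbours in these orders were not separate. With the groups ranked by mean, 14 of 17 neighbouring pairs overlapped for Il1a and for Il1rn, 16 of 17 for Il1b, Il18 and Nlrp3, and 17 of 17 for Casp1 and Pycard. Of the 3 separate steps of Il1a, 2 were at the top, where the DTR+ MHCII+ groups with no DT time (11.24 to 11.27) and at 8 h (10.99 to 11.21) each stood above the next group. The other was at rank 10 of 18, where the DTR− MHCII+ group with no DT time stood above day 4 MHCII−.

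**Figure D4:**
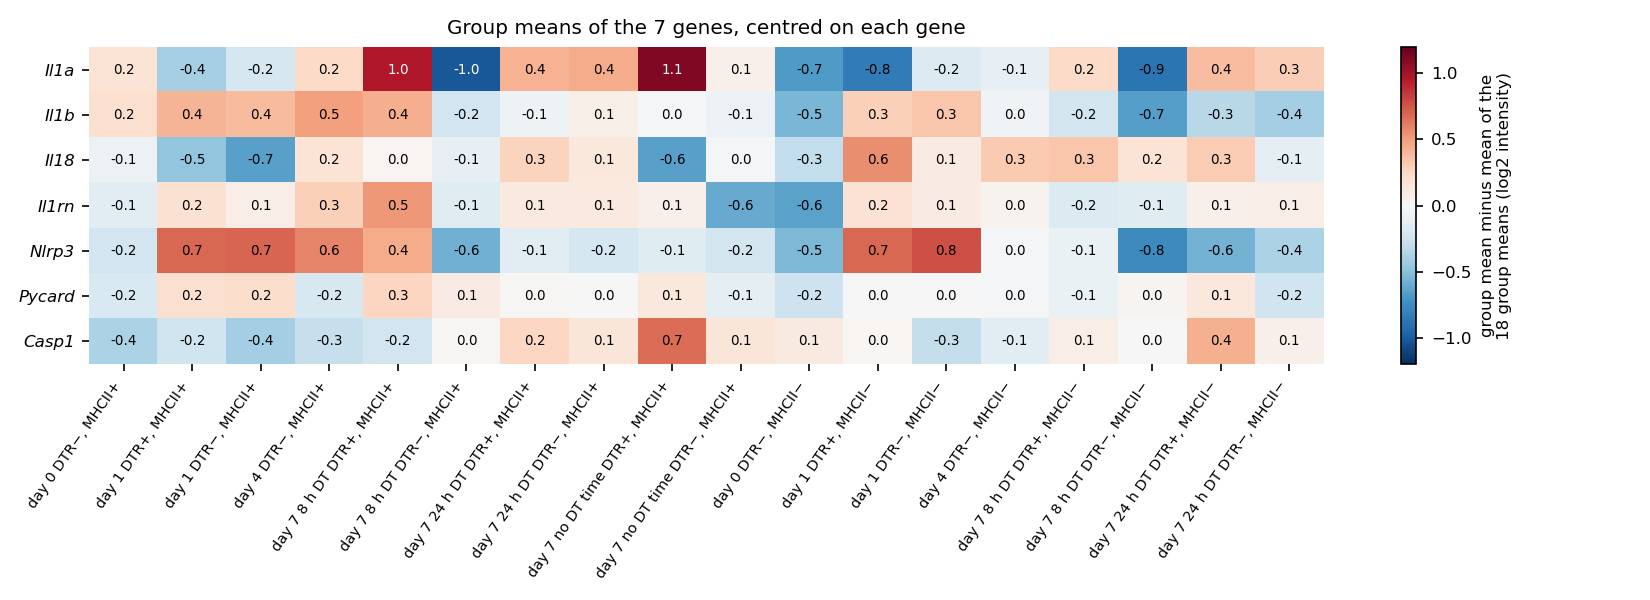
Group means of the 7 genes in the 18 groups (MHCII+ groups left, MHCII− groups right), as log2 difference from the mean of each gene's 18 group means; red is above and blue below. Nlrp3 and Il1b are red together at day 1, while the reddest Il1a groups are 2 DTR+ groups of day 7.

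As a description over the 18 group means, Il1b and Nlrp3 went together (Pearson r = 0.90), whereas Il1a followed neither (0.25 with Il1b, 0.07 with Nlrp3). Il1rn followed Il1b at 0.62. Casp1 ran against Nlrp3 (−0.55) and Il1b (−0.55), and Il18 stood apart from all others (−0.24 to 0.12). The points share arrays, day and subset, and no p is given. By the same measure the genes most like Il1a were Pde4b (0.83), Creb5 (0.82) and Hipk2 (0.78); most like Il1b, Tgif1 (0.85), Cytip (0.84) and D16Ertd472e (0.83); and most like Nlrp3, Tgif1 (0.93), Dusp5 (0.90) and Usp16 (0.90). Nearest to Il1rn were Prelid3b (0.87), Htra4 (0.87) and Abitram (0.87), and to Il18 Csrp2 (0.72), Aftph (0.70) and Fcrl1 (0.70). Nearest to Casp1 were Nampt (0.87), Chmp1b (0.86) and Nod1 (0.86), and to Pycard Ndufaf4 (0.84), Thyn1 (0.84) and Lsm3 (0.80).

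Around the 7 genes, other ligands of the family were dim: of 6 on the array (Il33, Il1f5, Il1f6, Il1f8, Il1f9 and Il1f10) 0 reached the filter of log2 7.57, and the highest group mean was 7.34 for Il1f9. At 8 h in MHCII+ macrophages 0 of 6 tested receptor and binding protein genes and 0 of 11 signalling genes passed by genotype, where 0.488% of all tested genes did. Of 5 tested caspase and pyroptosis genes 1 rose, Casp4, which encodes the caspase that senses intracellular lipopolysaccharide: 10.89 ± 0.155 in DTR+ and 10.13 ± 0.19 in DTR− arrays (SD, n = 3 each; limma, 0.77 ± 0.15, adjusted p = 0.01). Of 13 tested genes of other inflammasome sensors and regulators 1 fell, Txnip, whose product can bind NLRP3 (−0.71 ± 0.15, adjusted p = 0.018). Like Il1a, Casp4 in DTR− MHCII+ cells was lower in the 8 h than in the 24 h set (−0.86 ± 0.14, adjusted p = 2.4e-04).

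In the set with no DT time, where 11.5% of all tested genes passed, 2 of 6 receptor genes rose in DTR+ MHCII+ macrophages: Il1rl2, the receptor of the IL-36 ligands (1.60 ± 0.285, adjusted p = 1.1e-04), and Il18bp, the secreted trap of IL-18 (0.83 ± 0.21, 0.0073). Il18bp thus rose where Il18 fell. Of 11 signalling genes 1 fell, Irak2 (−0.56 ± 0.17, 0.021). Of 5 caspase and pyroptosis genes Gsdmd, which encodes the pore protein cleaved by caspase-1, rose (0.52 ± 0.17, 0.04) and Ninj1, needed for rupture of the dying cell, fell (−0.54 ± 0.18, 0.04). Of 13 other inflammasome genes 0 passed.

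At day 1 against day 0 in MHCII− macrophages, where Nlrp3 and Il1b rose, 2 of 6 receptor genes rose and 1 fell; of all tested genes 9.4% rose and 16.2% fell. The decoy receptor gene Il1r2 rose by 1.58 ± 0.29 (limma, adjusted p = 8.7e-05), the shared co-receptor gene Il1rap by 1.26 ± 0.18 (2.7e-06), and Il18bp fell by 0.87 ± 0.21 (0.0025). Of 13 other inflammasome genes 3 rose and 4 fell. Mefv, which encodes the sensor pyrin, rose by 1.59 ± 0.20 (1.6e-07), whereas Txnip (−1.63 ± 0.18), the ATP receptor gene P2rx7 (−1.18 ± 0.14) and the NLRP3 partner gene Nek7 (−0.88 ± 0.12) fell (adjusted p = 1.8e-08, 2.8e-08 and 5.1e-07). Casp4 and Ninj1, 2 of 5 in their list, fell by 1.05 ± 0.18 and 0.55 ± 0.18, and Myd88, 1 of 11 signalling genes, rose by 0.54 ± 0.13.

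From day 1 to day 4 in MHCII− cells several of these turned round, as Nlrp3 did. Il1r2 (−1.80 ± 0.29), Il1rap (−1.15 ± 0.18) and Mefv (−0.92 ± 0.20) fell, and Il18bp (1.52 ± 0.21), Nek7 (1.08 ± 0.12) and P2rx7 (1.02 ± 0.14) rose, with adjusted p of 6.9e-04 or less in limma. In all, 1 of 6 receptor genes rose and 3 fell, and 4 of 13 other inflammasome genes rose and 1 fell, where 16.9% of all tested genes rose and 7.31% fell. The day 1 arrays enter both comparisons. Among subset differences, Il1r2 at day 4 was 8.56 ± 0.245 in MHCII+ and 6.99 ± 0.11 in MHCII− arrays (SD, n = 2 each). The difference was 1.57 ± 0.29 (limma, adjusted p = 8.6e-04). Of 6 tested receptor genes 2 passed as higher at day 4, where 1.12% of all tested genes did. Sigirr, an inhibitory receptor of the family, was higher in MHCII+ cells at day 0 (limma, 0.57 ± 0.11, adjusted p = 1.7e-04), 1 of 6 receptor genes. At day 0, 3 of 13 other inflammasome genes and 1 of 11 signalling genes were higher. Lower were 1 of 13 other inflammasome and 1 of 5 caspase and pyroptosis genes. Of all tested genes 8.44% were higher and 10.6% lower.

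**Figure D5:**
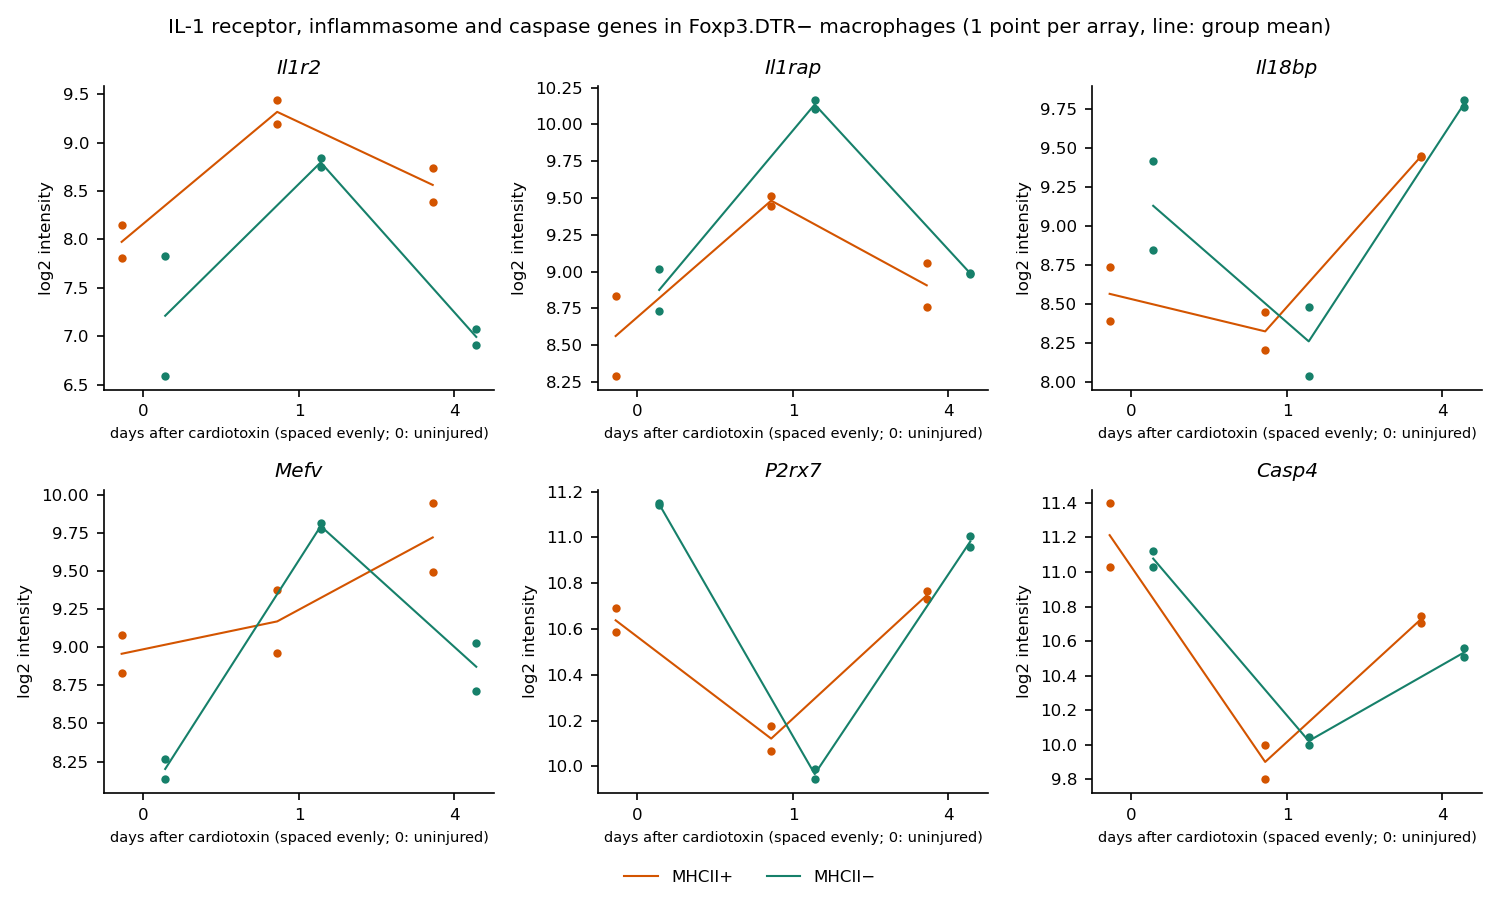
Log2 intensity of 6 genes of IL-1 reception, inflammasome regulation and inflammatory caspases in DTR− macrophages at day 0, 1 and 4, 1 point per array, with lines through group means. Il1r2 and Il1rap peak at day 1 in both subsets, P2rx7 and Casp4 are lowest at day 1, and Mefv peaks at day 1 in MHCII− cells.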

How the data were processed

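RNA of sorted muscle macrophages was measured on 45 Affymetrix Mouse Gene 1.0 ST arrays. The deposited values are intensities on a linear scale (9.434 to 24649, array medians 174.7 to 203.7), and the submitters' processing notes name Affymetrix Power Tools and RMA, with versions not given in the sources used here. Of 24922 probe sets, 21425 carried 1 gene symbol, 1399 several and 2098 were not listed in the platform annotation. Each of 19752 genes was read from its single-symbol probe set with the highest mean, as log2, without further normalization. The 11074 genes with at least 1 group mean above log2 7.57, the median of all values, were tested.

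Groups follow the titles. One mean per group was fitted with limma 3.58.1 (R 4.3.3; 27 residual degrees of freedom; empirical Bayes with an intensity trend), and p-values were adjusted by Benjamini-Hochberg within each comparison, with a threshold of 0.05. The fit was tested on simulated data. Figures were drawn with matplotlib 3.10.9. The 7 genes, the pathway and marker lists and the comparisons were chosen with earlier results of these data known, and the comparison of the 8 h with the 24 h set was added after its values had been seen. Of each pathway list up to 4 passed genes with the smallest p were named per comparison, and for each of the 7 genes the 3 named genes of highest correlation. Alternatives were quantile normalization, no filter, the mean of all probe sets of a gene, array quality weights, a fit of the compared arrays only, the replicate number as a block, and leaving out each array.

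Same-numbered arrays deviated together at a correlation of at least 0.1 in every one of 3 pairs in 2 comparisons. These were the 8 h DTR− subsets (correlations 0.527, 0.48 and 0.583) and the 8 h against the 24 h set in DTR− MHCII− cells (0.193, 0.297 and 0.228). The 3 pairs of the 24 h MHCII− genotype comparison correlated at 0.282, 0.0923 and 0.201. With 2 shared numbers, pairs by genotype at 8 h correlated at 0.268 and 0.691 in MHCII− cells and at −0.124 and −0.351 in MHCII+ cells. Promoter sequences are from RefSeq (GRCm38.p6).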

Additional observations from a re-analysis of the deposited data

Results flagged for a closer look

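The MHCII+ minus MHCII− difference of Il18 in DTR− macrophages was −0.76 at day 1 and 0.23 at day 0, and the change between them, −0.986 on the log2 scale, passed in a test of the difference itself (limma, adjusted p = 0.024). It stands here as a tested difference between times, but it did not pass on leaving out 5 of the 8 arrays, 1 at a time, or with the compared arrays only (adjusted p = 0.096). In 2 groups of 4 arrays, 14 sets of values of the 7 genes were searched for 1 array far from the others, and none was found by Dixon's criterion.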

How the results depend on the processing

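Of the counts of members that passed, 141 were within 1.5 times the reported count under another setting and 31 were not. With array quality weights, 4 members passed by genotype in the 24 h MHCII−, 4 in the 8 h MHCII− and 5 in the no DT time comparison; 2, 1 and 2 by subset at day 0, in the 24 h set and in the 8 h set; 2 and 2 at day 4 against day 1 in MHCII+ and MHCII− cells, 6 at day 1 against day 0 and 6 at day 7 against day 4 in MHCII− cells, and 1 at day 7 with no DT time against day 0. Under the weights 4 passed in the 24 h minus 8 h genotype difference in MHCII− cells, 2 in the day 1 minus day 0 subset difference and 4 in each 8 h against 24 h comparison of MHCII− cells. These weights ran from 0.0301 to 31.2, and their estimation stopped short of its tolerance. With quantile normalization 1 member passed in the no DT time comparison and 1 (Il1a) in the 24 h minus 8 h genotype difference of MHCII+ cells. With the compared arrays only, 1 passed in the 8 h MHCII+ genotype comparison (Il1a, adjusted p = 0.0044), 5 with no DT time, 2 by subset at day 4, 3 at day 4 against day 1 in MHCII− cells, 1 at day 7 with no DT time against day 0, 1 in the 24 h minus 8 h genotype difference of MHCII+ cells, 1 in the day 1 minus day 0 subset difference (Il1b in place of Il18), 1 in the day 4 minus day 1 subset difference and 0 in the 8 h against 24 h comparison of DTR− MHCII− cells. With the replicate block 1 passed by genotype at 8 h in MHCII+ cells (Il1a, 2.14; Il1b 0.19 and Nlrp3 0.14 as adjusted p), 2 by subset at day 0, 1 by subset at 8 h and 4 in the 8 h against 24 h comparison of DTR− MHCII− cells; the block moved no other count of passed members by over 1.5 times. No paired analysis was possible because fewer than 2 replicate numbers were shared in 5 comparisons: genotype in 24 h MHCII+, subset at day 4, day 4 against day 1 in MHCII+, and both comparisons of the sets in DTR+ cells. With the 8 h set as day 7, chosen after seeing the data, 3 members passed against day 4 in MHCII+ and 1 in MHCII− cells, and Il1a reversed to −1.25 (adjusted p = 0.0038). Leaving out 1 array gave 1 to 3 passed members for genotype at 8 h in MHCII+, 0 to 3 in 8 h MHCII−, 0 with no DT time, 0 to 2 for subset at day 0, 0 to 1 for subset at day 1, 24 h and 8 h, 0 to 2 for day 1 against day 0 in MHCII+ and 2 to 3 in MHCII− cells. It gave 0 to 1 for day 4 against day 1 and day 7 against day 4 in MHCII+, 0 for day 4 against day 1 in MHCII−, 0 to 1 for the 24 h minus 8 h difference in MHCII+ and the day 1 minus day 0 subset difference, and 1 to 4 for the sets in DTR− MHCII− cells. A group left with 1 array was assumed to vary like the others. The causes of these shifts were not tested. Of single genes under other settings, 1144 results kept their side of the threshold, 63 newly passed, 10 no longer passed and 1 reversed. With 1 array left out, 1241 kept their side, 17 newly passed and 37 no longer passed. A reversal was counted only where the result passed in either fit. Kept results that passed in neither fit may therefore have changed sign. The 1144 also hold the span of each gene's group means, which has no threshold. Under quantile normalization no group mean moved by more than 0.0719. The counts of kept results above include the mean of all probe sets of a gene. That setting could not move the values of the 7 genes, because each had 1 probe set, so its part of these counts says nothing about stability.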

Other observations

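In the 24 h set Casp1 separated by replicate number rather than by genotype or subset: 9.06 to 9.47 in the 5 arrays numbered 3 and above and 9.665 to 10.11 in the 7 arrays numbered 1 and 2. Il1rn ran the other way, with medians of 12.47 and 11.72 and ranges that overlapped. This was noticed in the values and was not tested; the labels do not say what the numbers stand for.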
